A study of Mus musculus with 6 samples.

Results

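T-box genes encode transcription factors that share a DNA-binding domain, the T-box. A total of 10 of them was examined in the embryonic mandibular arch, from which the lower jaw and its muscles form: Tbx1, Tbx2, Tbx3, Tbx4, Tbx5, Tbx6, Tbx15, Tbx18, Tbx20 and Tbx22. They are 10 of 19938 genes measured. Each gene was represented by a probe set that the platform annotation gives this gene symbol alone, selected by the highest mean over the 6 arrays; all 10 members had 1 such probe set, so the mean level decided nothing among them. The genotype difference did not enter this rule, but the family was picked with earlier results of these data known, among them those for Tbx1 and Tbx20.

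RNA came from mandibular arches of C57BL/6 mouse embryos at embryonic day 9.5, and was read on 3 arrays of Tbx1-/- embryos (Tbx1 null) and 3 arrays of Tbx1+/+ embryos (wild type). Arches were pooled by genotype. Whether separate pools were used for the arrays is not stated, nor is how the null allele was made. Y-linked levels, given below, differed between arrays of a genotype, so these arrays did not all carry 1 shared pool. How much of the array-to-array spread behind the p-values is technical was not tested. Levels are log2 expression values, a difference of 1 being a doubling, and a log2 change is Tbx1 null minus wild type. Levels of different probe sets depend on their probes. They were set together only as places relative to the median gene level and as summed signals, in which bright probe sets weigh most. Both are description only. The genotypes were compared with limma over all 19938 genes, and a gene is said to have risen or fallen where its Benjamini-Hochberg adjusted p was under 0.05.

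Members of the family act in overlapping domains of the embryo. Tbx1, Tbx15, Tbx18, Tbx20 and Tbx22 belong to the Tbx1 subfamily, Tbx2, Tbx3, Tbx4 and Tbx5 to the Tbx2 subfamily, and Tbx6 to a group with Mga. Tbx1 is needed in the mouse for the pharyngeal arches, their core mesoderm and the muscles it forms. A single copy of its human counterpart is lost in DiGeorge syndrome, unlike the loss of both in these embryos. Tbx2 and Tbx3 act mainly as repressors and are induced by BMP signalling in several tissues, whereas Tbx5 and Tbx20 act in the heart.

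The arrays of a genotype were not equal in the embryos they sampled. The mean log2 level of 3 Y-linked genes (Eif2s3y, Kdm5d and Uty) was 5.73 on Tbx1 null replicate 3, against 9.58 and 9.28 on Tbx1 null replicates 1 and 2, and lay between 8.57 and 9.85 in wild type. Xist, expressed in female cells, was 13.10 on Tbx1 null replicate 3, against 12.38 and 12.60 on Tbx1 null replicates 1 and 2. It lay between 11.94 and 12.68 in wild type. The share of male embryos thus differed between arrays. The members' log2 changes are therefore also given without Tbx1 null replicate 3. Of 14 arch mesenchyme markers 13 lay above the median level of all genes. Levels of different probes are not comparable and no background probes were used here, so neither the presence of a marker nor the signal of dim probe sets above background could be judged. Of the members, 7 lay below the median gene level of 8.55, and Tbx18 and Tbx22 lay in the lowest quartile, where RMA values tend to understate changes. In pooled tissue, fewer cells of a type and less RNA per cell cannot be told apart.

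Of the 10 members, 1 rose (Tbx20), 1 fell (Tbx1) and 8 did not pass the threshold. Over all genes 0.160% passed, 17 genes (0.0853%) as higher and 15 (0.0752%) as lower in Tbx1 null; the split was 12 and 22 after quantile normalisation again and 16 and 30 after median centring. Before adjustment, at a p under 0.05, there were 5 members, Tbx1, Tbx2, Tbx3, Tbx5 and Tbx20, against 9.44% of all genes. Of these, 4 were higher (5.50% of all genes) and 1, Tbx1, lower (3.94%); counts before adjustment in the lists below use the same p under 0.05 and have these same shares of all genes beside them. The arrays of the genotypes did not overlap for 3 members that were higher in Tbx1 null (Tbx2, Tbx3 and Tbx20; 8.36% of all genes) and for 1 that was lower (Tbx1; 7.06% of all genes). The median log2 change of the 9 members other than Tbx1 was 0.14, and 8 of them lay above 0, Tbx6 by only 0.00034. The median over all genes was -0.0061, with 46.5% of genes above 0. With 1 array left out the median of the 9 was 0.091 (without Tbx1 null replicate 1) to 0.21 (without Tbx1 null replicate 3). Between 6 and 9 of them then lay above 0, with 6 when wild-type replicate 3 was left out. These counts describe a family that was chosen with results in view.

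**Figure D1:**
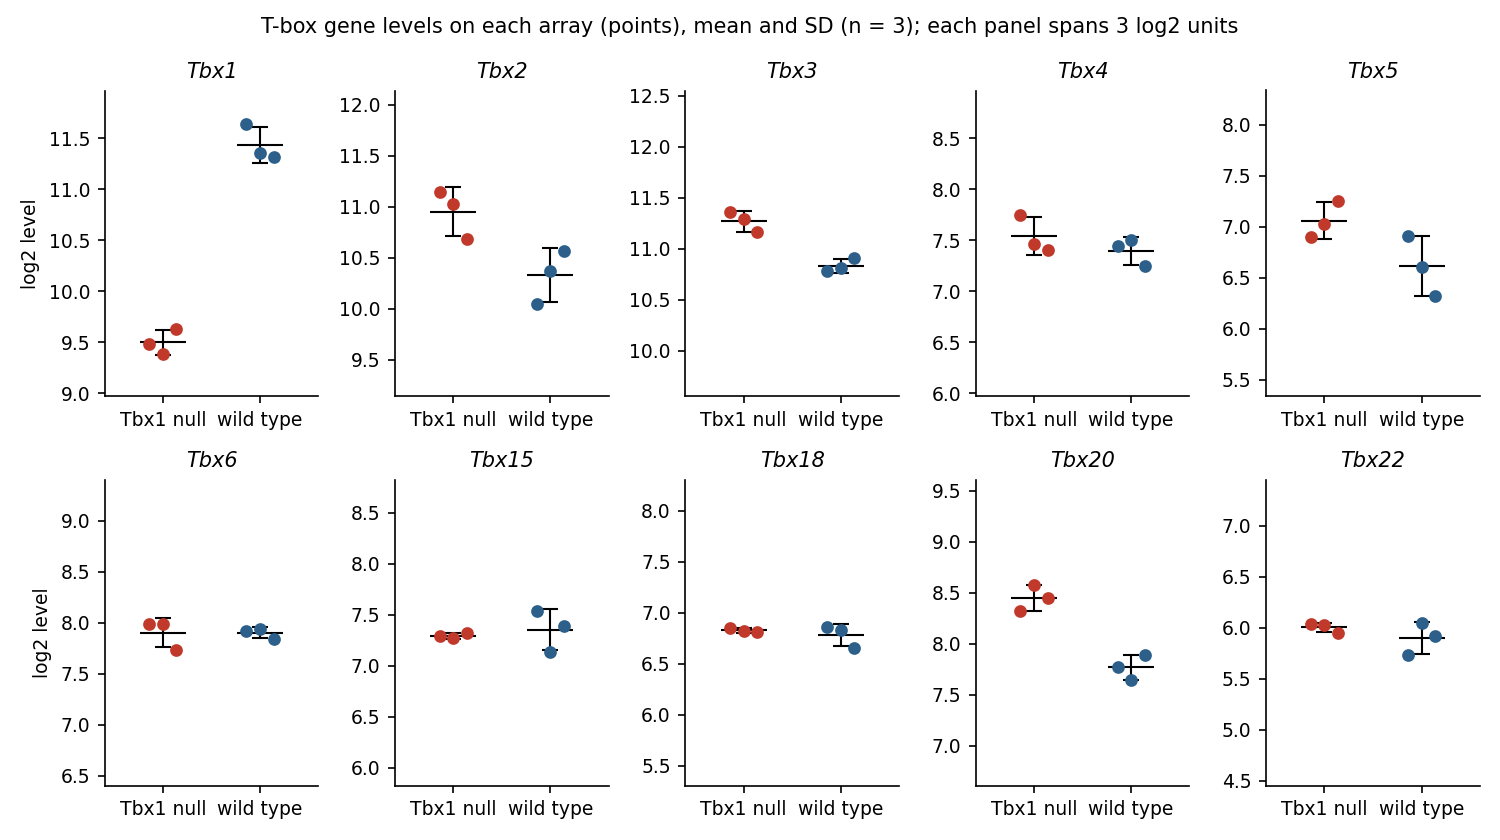
Log2 level of each T-box gene (vertical axis, every panel spanning 3 log2 units) on the 3 Tbx1 null arrays (red points, left) and the 3 wild-type arrays (blue points, right), with the mean and SD. The genotypes stand apart in Tbx1, Tbx2, Tbx3 and Tbx20 and overlap in the other 6 panels.

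Tbx1, the gene inactivated in these embryos (probe set 10438347), had log2 levels of 9.48, 9.39 and 9.63 on Tbx1 null replicates 1, 2 and 3, against 11.64, 11.36 and 11.31 on wild-type replicates 1, 2 and 3. Every Tbx1 null array lay below every wild-type array, with a gap of 1.69 between the closest pair. The log2 change was -1.94 (SE 0.10, 95% confidence interval -2.16 to -1.71; limma adjusted p = 0.000684), 3.83-fold lower in Tbx1 null, and it was the gene of rank 2 by p among all genes. Without Tbx1 null replicate 3 the change was -2.00 (adjusted p = 0.00442). The position of the probes relative to the altered sequence is not stated, so the null level can include transcript that the allele still makes. The neighbouring protein-coding gene Gnb1l differed by -0.03 on the log2 scale (SE 0.05, limma adjusted p = 0.890).

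Tbx20, which acts in heart development (probe set 10591853), had log2 levels of 8.32, 8.57 and 8.45 on Tbx1 null replicates 1, 2 and 3, against 7.77, 7.65 and 7.89 on wild-type replicates 1, 2 and 3. The genotypes did not overlap, and the closest pair of arrays was 0.43 apart. Tbx20 averaged 8.45 ± 0.12 in Tbx1 null and 7.77 ± 0.12 in wild type (SD, n = 3 each). The log2 change was 0.68 (SE 0.08, 95% confidence interval 0.49 to 0.87, or 1.40- to 1.83-fold), with rank 19 by p. Its limma adjusted p of 0.0422 was near the threshold, and with 1 array left out it ranged from 0.0570 to 0.170 while the change kept between 0.62 and 0.74. Without Tbx1 null replicate 3 the change was as large, at 0.68 (adjusted p = 0.124). With the replicate number as a block the adjusted p was 0.0970.

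The 2 members that passed the threshold are shown by windows of 300 bases around their annotated starts, from RefSeq (build GRCm38.p6, 5′ to 3′ on the gene's strand). The Tbx20 window is chr9:24774254-24774553 on the minus strand, and capitals mark GGCGCC, the GC-rich motif that Smads of the BMP pathway bind. The Tbx1 windows, for separate annotated starts, are chr16:18588850-18589149 and chr16:18590622-18590921 on the minus strand, and hold no GGCGCC.
Tbx20: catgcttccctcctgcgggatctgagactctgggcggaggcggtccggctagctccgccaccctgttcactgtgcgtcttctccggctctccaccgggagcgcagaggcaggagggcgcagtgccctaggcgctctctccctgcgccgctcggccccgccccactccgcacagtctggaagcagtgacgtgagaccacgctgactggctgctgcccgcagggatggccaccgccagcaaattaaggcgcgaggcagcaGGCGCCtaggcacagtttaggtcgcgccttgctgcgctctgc
Tbx1, first window: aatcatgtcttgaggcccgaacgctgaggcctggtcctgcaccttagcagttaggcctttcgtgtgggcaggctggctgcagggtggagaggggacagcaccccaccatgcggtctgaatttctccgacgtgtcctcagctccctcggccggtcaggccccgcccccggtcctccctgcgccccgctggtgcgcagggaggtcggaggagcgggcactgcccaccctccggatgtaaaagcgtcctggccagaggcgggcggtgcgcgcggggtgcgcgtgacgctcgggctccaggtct
Tbx1, second window: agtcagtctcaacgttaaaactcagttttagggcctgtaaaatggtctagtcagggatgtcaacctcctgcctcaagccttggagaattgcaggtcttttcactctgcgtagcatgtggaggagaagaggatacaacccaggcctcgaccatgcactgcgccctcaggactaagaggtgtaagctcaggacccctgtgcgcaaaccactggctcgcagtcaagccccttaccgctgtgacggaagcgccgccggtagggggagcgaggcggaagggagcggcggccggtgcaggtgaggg
Of the members, 6 had windows in this collection, 9 windows in all. Tbx2, Tbx3, Tbx5 and Tbx15 had none and could not be searched. The motifs were searched on both strands. The core of the T-box binding site, GTGTGA, was in 0 of these 9 windows and in 14.5% of all 32851 windows, so the longer forms GGTGTGA (3.98% of all windows) and AGGTGTGA (1.28%), which contain it, were absent too. GGCGCC was in 1 of the 9 (Tbx20) and in 11.9% of all windows. A GATA motif, AGATAA, was in 1 (Tbx22) against 11.2%, and TATAAA, the TATA box, in 2 (Tbx4 and Tbx6) against 13.6%. The motifs were chosen with the results known, and a match is a run of letters rather than a site shown to be bound.

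Tbx2, a repressor of the outflow tract, atrioventricular canal and pharyngeal tissues (probe set 10379936), had log2 levels of 11.15, 11.03 and 10.69 on Tbx1 null replicates 1, 2 and 3, against 10.05, 10.37 and 10.57 on wild-type replicates 1, 2 and 3. The genotypes did not overlap, but the closest arrays, Tbx1 null replicate 3 and wild-type replicate 3, were 0.12 apart. Tbx2 averaged 10.95 ± 0.24 in Tbx1 null and 10.33 ± 0.26 in wild type (SD, n = 3 each), the widest spread in Tbx1 null among the members. The log2 change of 0.62 (SE 0.15, 95% confidence interval 0.27 to 0.98; 1.54-fold) did not pass the threshold (limma adjusted p = 0.224). It was close in size to that of Tbx20 but had an SE of 0.15 in place of 0.08. Without Tbx1 null replicate 3 it was 0.76 (adjusted p = 0.210).

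Tbx3, the close relative of Tbx2 (probe set 10525016), had log2 levels of 11.35, 11.29 and 11.16 on Tbx1 null replicates 1, 2 and 3, against 10.78, 10.81 and 10.91 on wild-type replicates 1, 2 and 3. The genotypes did not overlap, with a gap of 0.25. Tbx3 averaged 11.27 ± 0.10 in Tbx1 null and 10.83 ± 0.07 in wild type (SD, n = 3 each). Its log2 change of 0.43 (SE 0.06, 95% confidence interval 0.29 to 0.58; 1.35-fold) had rank 50 by p and missed the threshold at a limma adjusted p of 0.0648. Without Tbx1 null replicate 3 it was 0.49 (adjusted p = 0.0903).

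Tbx5, a factor of the heart and forelimb (probe set 10525030), had log2 levels of 6.89, 7.03 and 7.25 on Tbx1 null replicates 1, 2 and 3, against 6.91, 6.60 and 6.32 on wild-type replicates 1, 2 and 3. Tbx1 null replicate 1 lay just below wild-type replicate 1, so the genotypes overlapped. The log2 change was 0.45 (SE 0.15, 95% confidence interval 0.10 to 0.80), with a limma adjusted p of 0.392. It was 0.35 (adjusted p = 0.692) when Tbx1 null replicate 3 was left out and 0.30 (adjusted p = 0.372) when wild-type replicate 3 was.

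Tbx2 and Tbx4 are next to each other on chromosome 11, and Tbx3 and Tbx5 on chromosome 5. Tbx4, a hindlimb and lung factor (probe set 10379944), averaged 7.54 ± 0.18 in Tbx1 null and 7.40 ± 0.14 in wild type (SD, n = 3 each), and its genotypes overlapped. Its log2 change of 0.14 (95% confidence interval -0.10 to 0.38; limma adjusted p = 0.739) stood beside 0.62 for Tbx2, and it was 0.21 without Tbx1 null replicate 3 and 0.039 without Tbx1 null replicate 1. The neighbours of the members that are not T-box genes were 16 protein-coding genes, of which 15 were measured. None passed the threshold (0 in limma, 3 at an unadjusted p under 0.05: Rbm19, Ypel3 and Cep162), and their log2 changes lay between -0.15 and 0.16. Bcas3, on the other side of Tbx2, had a change of 0.13 (SE 0.07), and Med13l, next to Tbx3, of -0.07 (SE 0.09). Herpud2 and Cypt4, on either side of Tbx20, had changes of -0.04 and -0.01.

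The remaining 4 members gave small estimates, with intervals that include 0. Tbx6, a factor of presomitic mesoderm (probe set 10557488), averaged 7.90 ± 0.14 in Tbx1 null and 7.90 ± 0.05 in wild type (SD, n = 3 each), and the interval of its log2 change ran from -0.17 to 0.17. Tbx15, a factor of skeletal and skin mesenchyme (probe set 10494672), averaged 7.29 ± 0.03 and 7.36 ± 0.20 in Tbx1 null and wild type, with an interval of -0.28 to 0.16. Tbx18, a factor of somites and epicardium (probe set 10595560), averaged 6.83 ± 0.02 in Tbx1 null and 6.78 ± 0.11 in wild type, with an interval of -0.10 to 0.18. Tbx22, the X-linked gene of the palate (probe set 10601433), averaged 6.00 ± 0.05 in Tbx1 null and 5.90 ± 0.16 in wild type, with an interval of -0.08 to 0.29. The genotypes overlapped in each of these genes, and their limma adjusted p-values lay between 0.754 and 0.999. Without Tbx1 null replicate 3 the log2 changes were 0.084 for Tbx6, -0.075 for Tbx15, 0.052 for Tbx18 and 0.13 for Tbx22. All 4 lay below the median gene level, so the intervals hold for the array signal, which can understate a change in the transcript.

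**Figure D2:**
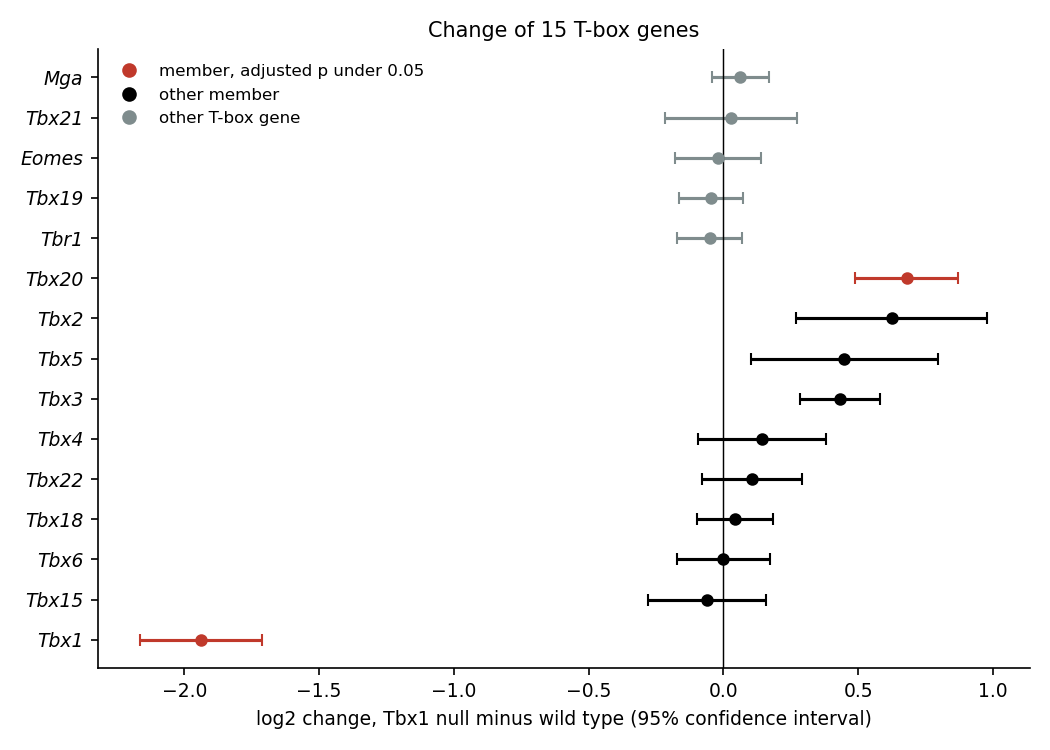
Log2 change, Tbx1 null minus wild type (horizontal axis), of the 10 T-box genes and of 5 further T-box genes, as points with 95% confidence intervals; red marks members past an adjusted p of 0.05. The intervals of Tbx20, Tbx2, Tbx5 and Tbx3 lie above 0, that of Tbx1 below 0, and the other 10 include 0.

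Of 7 further T-box genes on a list of the rest of the family, 5 were measured and none passed (0 in limma, 0 at an unadjusted p under 0.05). Mga, a large T-box protein that binds Max, had a log2 change of 0.06 (SE 0.05). Tbr1, Eomes, Tbx19 and Tbx21, which act in the brain, early mesendoderm, pituitary and T cells, had changes of -0.05, -0.02, -0.05 and 0.03. T and Tbx10 are not analysed here.

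The order of the arrays differed between members. In Tbx2 and in Tbx3 the 6 arrays stood in the same order, with Tbx1 null replicates 1, 2 and 3 followed by wild-type replicates 3, 2 and 1 from the highest to the lowest level. This order was found in 90 genes (0.451% of those tested). Of the 14 arch mesenchyme markers 3 had it (Msx1, Prrx1 and Hand2), and 11, Prrx2 and Gsc among them, did not. Hand1, a factor gene of the partner list, had it too. Hand1 had log2 levels of 10.45, 10.27 and 10.05 on Tbx1 null replicates 1, 2 and 3, against 9.61, 9.80 and 9.84 on wild-type replicates 1, 2 and 3. Tbx5 had another order within both genotypes, highest on Tbx1 null replicate 3 and on wild-type replicate 1. Actc1, the cardiac actin gene, had log2 levels of 10.46, 10.91 and 11.62 on Tbx1 null replicates 1, 2 and 3, against 10.05, 9.38 and 9.38 on wild-type replicates 1, 2 and 3. Actc1, Tnnt2, a troponin gene of heart muscle, and Gata5, a heart and endoderm factor gene, shared 1 order over the 6 arrays, with Tbx1 null replicate 3 highest and wild-type replicate 3 lowest (66 genes, 0.331%). Within each genotype Tbx5 had the same order as these 3 genes. Of the 20 cardiac muscle markers 6 had that order within both genotypes and 14, Myl7, Smyd1 and Pln among them, did not. Of all genes 2.96% had it. Of 10 core mesoderm markers 2 had it (Tcf21 and Msc), both with log2 changes below 0. Over all 6 arrays 0 of the 20 cardiac muscle markers had the order of Tbx5, which was found in 39 genes (0.196%). Tbx20 was highest on Tbx1 null replicate 2, in an order found in 34 genes (0.171%), Smad9 and Kcne1 among them. Smad9 was the only 1 of the 18 genes of the BMP list below with it, and 0 of the 20 cardiac muscle markers had it. Smad9 levels were 9.446, 9.459 and 9.448 on Tbx1 null replicates 1, 2 and 3, so its order there rests on very small differences. Within each genotype, the mean Y-linked level had the order of Tbx2 and Tbx3, and Xist that of Tbx5. The Y-linked mean was 9.58, 9.28 and 5.73 on Tbx1 null replicates 1, 2 and 3, against 8.57, 9.07 and 9.85 on wild-type replicates 1, 2 and 3. Xist was 12.38, 12.60 and 13.10, against 12.68, 12.46 and 11.94. The part of the share of male embryos in these orders was not tested. These orders describe 6 arrays, and genes were set beside the members after their values were seen.

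**Figure D3:**
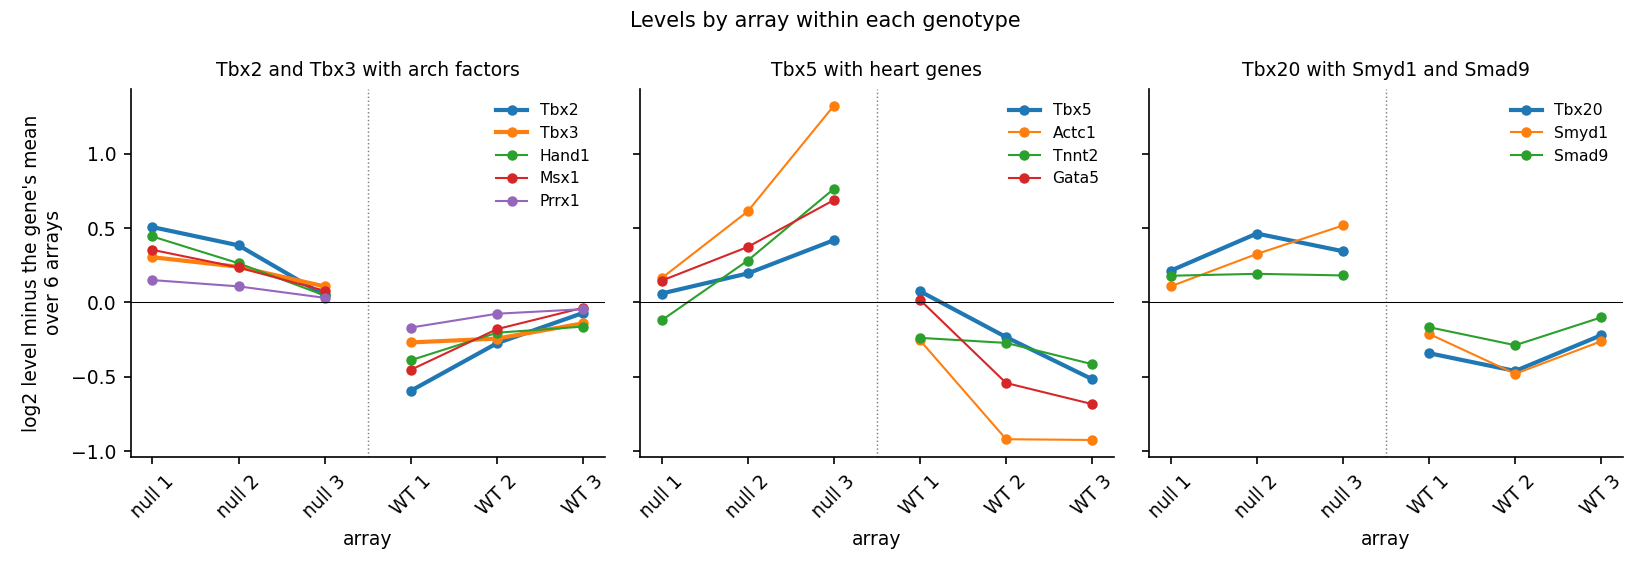
Log2 level minus the gene's mean over the 6 arrays (vertical axis) for each array (horizontal axis), with Tbx1 null arrays left of the dotted line and wild-type (WT) arrays right of it; lines only join the points of a gene. Tbx2 and Tbx3 are highest on Tbx1 null replicate 1 and lowest on wild-type replicate 1, as are Hand1, Msx1 and Prrx1. Tbx5, Actc1, Tnnt2 and Gata5 are highest on Tbx1 null replicate 3 and lowest on wild-type replicate 3. Tbx20 and Smad9 are highest on Tbx1 null replicate 2, Smad9 with almost no spread in Tbx1 null, and Smyd1 is highest on Tbx1 null replicate 3.

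The genes whose profile was most like that of each called member were found by the root mean square difference over the 6 arrays, after each gene was centred on its own mean. For Tbx1 these were Lhx2 (0.252 log2 units), Slit1 (0.296) and Dmrta1 (0.510). Lhx2 and Slit1 fell, whereas the value for Dmrta1 was -0.96 (SE 0.20, limma adjusted p = 0.148). For Tbx20 they were Insyn2b (0.103), the muscle methyltransferase gene Smyd1 (0.114) and the phosphoglucomutase-like gene Pgm5 (0.135). Insyn2b rose by 0.62 (SE 0.04, adjusted p = 0.00507), and Smyd1 and Pgm5 had changes of 0.63 and 0.77 (adjusted p = 0.113 and 0.0548). These genes were picked for likeness over the same 6 arrays, so a similar genotype change follows from the choice and is no separate result.

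BMP signalling, known to induce Tbx2, Tbx3 and Tbx20, was read from a list of its ligands, receptors and Smads and of response genes, which are outputs of the pathway and not upstream of the T-box genes. Of 18 measured members 1 rose (Msx2), 0 fell and 17 did not pass, while 17 lay above 0 and before adjustment 12 were higher and 0 lower in limma. The median log2 change was 0.20, against -0.0061 over all genes. The homeobox gene Msx2, a BMP response gene, had log2 levels of 12.21, 12.17 and 12.18 on Tbx1 null replicates 1, 2 and 3, against 11.73, 11.86 and 11.81 on wild-type replicates 1, 2 and 3 (log2 change 0.39, adjusted p = 0.0422). The ligand gene Bmp4 had a change of 0.32 (SE 0.05, adjusted p = 0.0577), and Smad9 and Smad7, a receptor-regulated and an inhibitory Smad, of 0.37 and 0.35 (adjusted p = 0.0662 and 0.0845). The list median lay between 0.14 and 0.27 with any 1 array left out.

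Partners of T-box proteins and their co-repressors made a list of 28, of which 26 were measured. None passed the threshold in limma (0 in either direction; before adjustment, 8 higher and 0 lower), and the median log2 change was 0.04. The 4 of lowest p were Hand1 (0.50, SE 0.10), Gata6 (0.61, SE 0.15), Gata5 (0.80, SE 0.20) and Tle5 (0.16, SE 0.04), with adjusted p-values from 0.157 to 0.265. Gata5 and Gata6 are zinc-finger factors of heart and endoderm, and Tle5 is a short Groucho-family protein.

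Among genes reported downstream of Tbx1 in the mouse, 23 of 25 were measured. Of these 0 rose, 1 fell (Lhx2) and 22 did not pass, and before adjustment 2 were higher and 5 lower, with a median log2 change of -0.11. With 1 array left out that median lay between -0.17 (Tbx1 null replicate 3 left out) and -0.042 (wild-type replicate 1 left out); it was -0.064 without Tbx1 null replicate 1 and -0.045 without Tbx1 null replicate 2. Lhx2, a LIM-homeodomain factor of the core mesoderm, had log2 levels of 8.37, 8.10 and 8.31 on Tbx1 null replicates 1, 2 and 3, against 9.72, 9.94 and 9.82 on wild-type replicates 1, 2 and 3 (log2 change -1.56, adjusted p = 0.000784). The myogenic factor gene Myf5 had a change of -0.66 (adjusted p = 0.0509), the growth factor gene Fgf10 of -0.22 (adjusted p = 0.261) and Smad7, as above, of 0.35.

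Heart genes that Tbx2, Tbx3, Tbx5 or Tbx20 are known to regulate did not pass the threshold (0 of 18 measured in limma; before adjustment, 7 higher and 0 lower), with a median log2 change of 0.12. Of the 18, 12 lay above 0 and 6 below, Gja5 (-0.30, SE 0.13) and Nppa (-0.09, SE 0.09) among the latter. The genes of lowest p were all on the higher side. Myl7, an atrial myosin light chain gene, had a change of 0.84 (SE 0.17), Actc1 of 1.40 (SE 0.29), Cacna1g, a calcium channel gene, of 0.37 (SE 0.09) and Tnnt2 of 0.62 (SE 0.19). Their adjusted p-values lay between 0.148 and 0.360. The separate list of cardiac muscle markers, which shares members with it, had 18 of 20 above 0, with 0 past the threshold, 9 higher and 0 lower before adjustment, and a median change of 0.21. Its lowest p was that of Smyd1. The summed linear signal of these 20 markers was 7882, 9363 and 12243 on Tbx1 null replicates 1, 2 and 3, against 7731, 6195 and 6139 on wild-type replicates 1, 2 and 3. The genotypes did not overlap in this sum, and its lowest Tbx1 null and highest wild-type arrays were close. Array values have no true 0, and 6 of 20 lay above the median gene level. Tbx20 and Tbx5 averaged higher in the same genotype as these markers, whose part in the result was not tested. Without Tbx1 null replicates 1, 2 and 3 in turn, the list median was 0.32, 0.20 and 0.11, and the change of Tbx20 was 0.74, 0.62 and 0.68. Without wild-type replicates 1, 2 and 3 in turn, the median was 0.28, 0.20 and 0.16, and the change of Tbx20 was 0.68, 0.62 and 0.74.

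Markers of other tissues in which T-box members act were read in the same way. Of 12 presomitic and somitic mesoderm markers 11 lay below 0, with 0 past the threshold in limma, 0 higher and 3 lower before adjustment (Meox1, Dll1 and Uncx) and a median log2 change of -0.17. Tbx6, a gene of the same tissue, had a change of 0.00034. The somite gene Meox1 averaged 7.02 ± 0.09 in Tbx1 null and 7.52 ± 0.09 in wild type (SD, n = 3 each), a log2 change of -0.50 whose adjusted p of 0.05002 did not pass. Of 8 proepicardium and epicardium markers, Tbx18 among them, 0 passed, with 1 higher (Wt1, change 0.13) and 1 lower (Tcf21, change -0.53) at an unadjusted p under 0.05. Of 6 measured Hox genes of the second arch and hindbrain 0 passed, with 2 higher (Hoxa2 and Hoxb2, changes 1.11 and 0.63) at an unadjusted p under 0.05. The summed linear signal of the Hox list lay between 1649 and 1806 in Tbx1 null and between 1322 and 1443 in wild type, beside the higher Tbx20, Tbx2 and Tbx3 levels, and its part in them was not tested.

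Other lists had medians close to 0 or on the lower side. Arch mesenchyme markers had 0 of 14 past the threshold (before adjustment, 5 higher and 1 lower in limma) and a median change of 0.05. Their summed linear signal lay between 53876 and 57383 in Tbx1 null and between 49016 and 54090 in wild type. Core mesoderm markers had 1 of 10 past it (Lhx2, lower) and a median of -0.24. Before adjustment 2 of them were higher (Isl1 and Ebf3, log2 changes 0.36 and 0.32) and 5 lower. Primitive erythroid markers had 10 of 10 below 0 and a median of -0.27, with 0 past the threshold and 10 lower at an unadjusted p under 0.05. Endothelial, pharyngeal endoderm and otic vesicle markers had medians of -0.04, -0.01 and 0.06, with 0 past the threshold in limma. With 1 array left out these medians were -0.095 to -0.0058, -0.076 to 0.017 and -0.014 to 0.12. At an unadjusted p under 0.05 there were 1, 3 and 4, of which 0, 2 and 2 were higher and 1, 1 and 2 lower. The otic vesicle markers Pax8 and Sox10 had opposite changes, of 0.79 (SE 0.29) and -0.85 (SE 0.31).

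**Figure D4:**
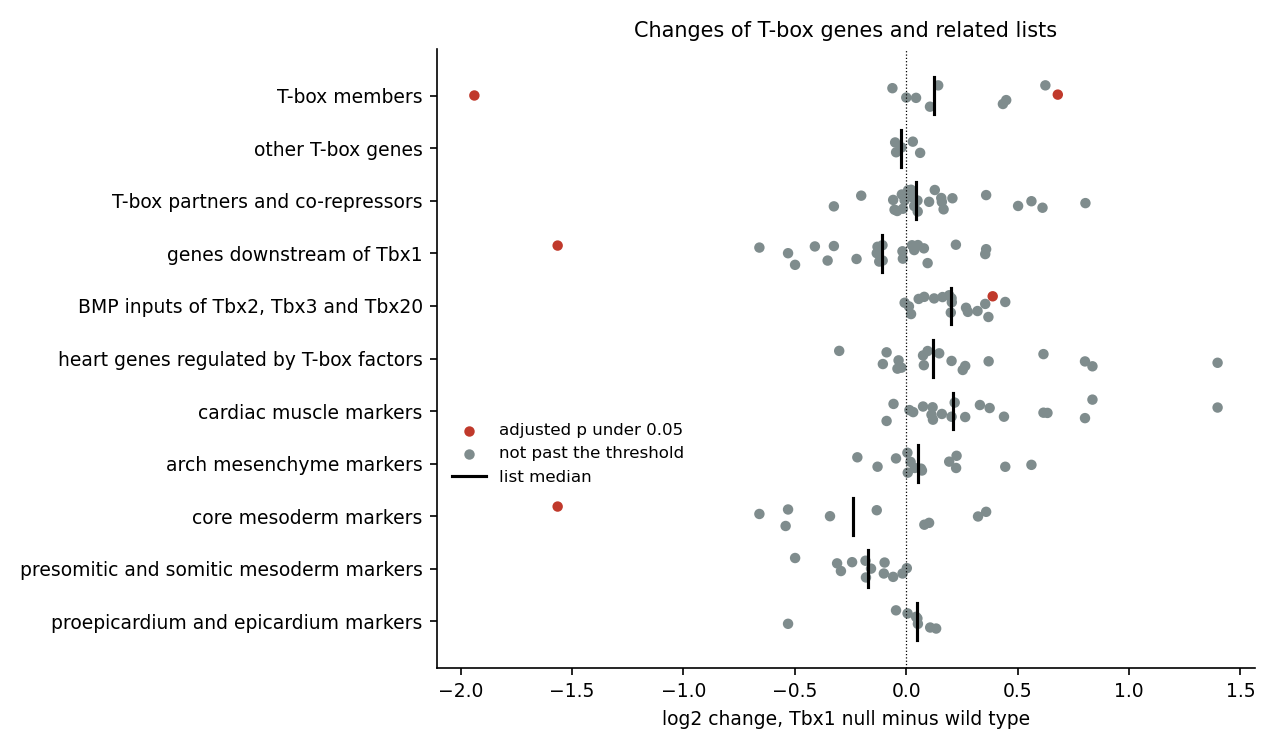
Log2 change, Tbx1 null minus wild type (horizontal axis), of each gene of 11 lists (rows); red points passed an adjusted p of 0.05 and black bars are list medians. Tbx1 and Lhx2 stand far to the left, and Tbx20 and Msx2 are the called genes on the right.

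How firmly each of the leading members was measured differed. Tbx1 passed the threshold in all 15 alternatives run, with log2 changes between -2.00 and -1.84. Tbx20 kept its direction in all 14 that gave it a value, with changes between 0.62 and 0.76, and passed in 5. Tbx3 had changes between 0.39 and 0.49 and passed in 3 of 15, Tbx2 had changes between 0.48 and 0.76 and passed in 1 of 15, with array weights, and Tbx5 passed in 0 of 14. Array weights gave wild-type replicate 2 the highest weight and the other 5 arrays weights between 0.413 and 1.77.

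**Figure D5:**
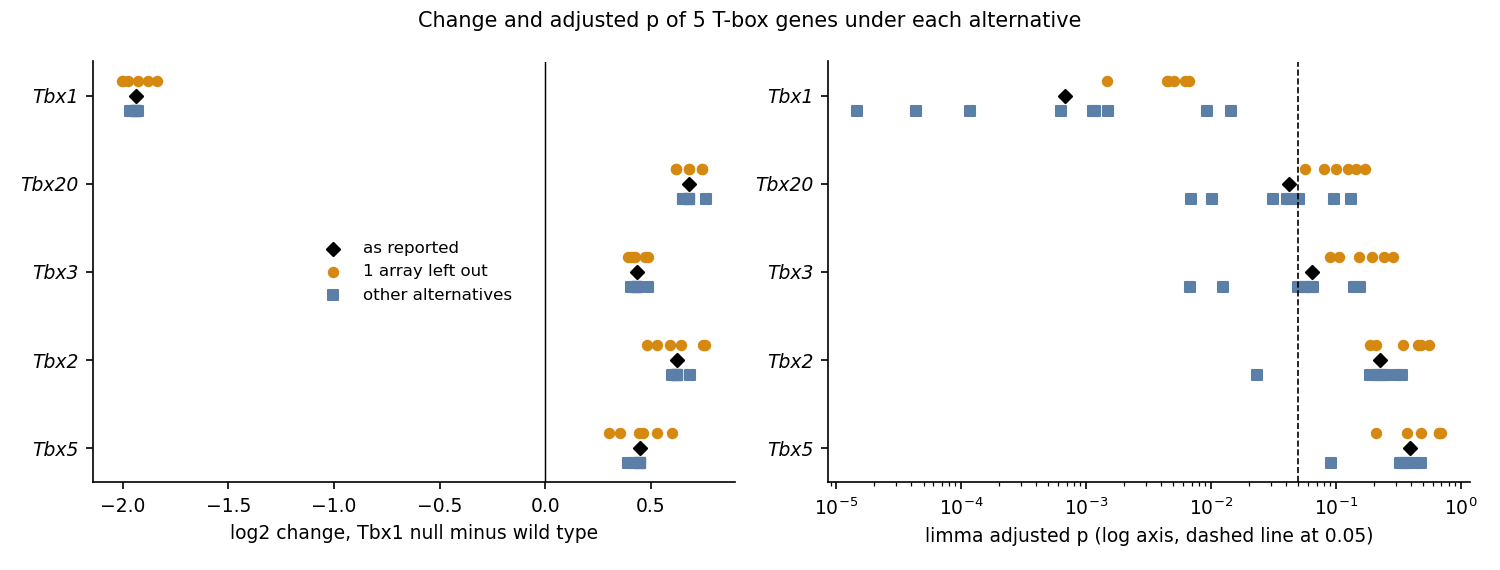
Log2 change, Tbx1 null minus wild type (left), and limma adjusted p on a log axis (right) of 5 T-box genes as reported (diamonds), with 1 array left out (circles) and under the other alternatives (squares). Changes keep their side of 0 in all 5 genes, and only Tbx1 stays left of the dashed line at 0.05 throughout.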

How the data were processed

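Expression in E9.5 mandibular arches was measured on Affymetrix Mouse Gene ST arrays, 3 per genotype. The labelling reaction used 300 ng of total RNA, per the labels' protocols. The deposited values are log2 levels per probe set, for which the submitters' processing notes name RMA and Affymetrix Expression Console 1.1; their range shows the log2 scale (3.63 to 14.6, array medians 7.98 to 8.04). No build or filter is stated. RMA equalises the arrays, which hides a shift common to most genes.

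Of 35556 probe sets, 21789 had 1 gene symbol, 1621 several and 12146 none. Entrez IDs matched 21698 of the first to RefSeq genes (GRCm38.p6), used for names and neighbours. The probe set with the highest mean stood for each of 19938 genes. limma 3.58.1 in R 4.3.3 (lmFit, eBayes, two-sided, no covariate) was fitted to all genes, with Benjamini-Hochberg adjustment. The fit was tested on simulated data. Fold is 2 to the power of the log2 change, and a summed linear signal adds 2 to the power of each level. There is no read depth; the number of arrays limits the precision (median SE 0.0579).

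Members, lists and motifs were chosen with earlier results of these data known. Genes named were drawn from all members, other T-box genes measured, from each list those past the threshold and up to 4 of lowest p, the 3 most alike to each called member (predicted, Rik, microRNA, small nucleolar RNA and olfactory receptor genes left out), and neighbours. Genes set beside members in the array orders were picked after their values were seen. Alternatives were leaving out each array, quantile normalisation again, median centring, filters on dim genes, a replicate block, trend and robust eBayes, array weights, the mean of probe sets and every probe set tested.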

Additional observations from a re-analysis of the deposited data

How the results depend on the processing

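Leaving out 1 array moved the count of genes past the threshold from the reported 32 to between 3 and 20, and of T-box members that rose from 1 to 0 each time; fewer arrays were then tested. The gene count was 3 without Tbx1 null replicate 1, Tbx1 null replicate 2 or wild-type replicate 2. With the replicate block 6 genes and 0 higher members passed. The labels do not say that replicate numbers pair anything. Deviations from the genotype mean correlated at -0.05, 0.26 and 0.15 for numbers 1, 2 and 3. For unlike numbers the correlations lay between -0.37 and 0.25. With 3 arrays per genotype these values cannot show whether samples of the same number shared a litter or day. With every probe set tested the counts were 4 and 0, with trend and robust eBayes 96 and 2, and with array weights 334 and 3. After quantile normalisation again 0 members were higher, since Tbx20 had an adjusted p of 0.0503, and the 34 genes called were 12 higher and 22 lower, against 17 and 15 as reported and 16 and 30 after median centring. The count of lower members stayed at 1 (Tbx1) in all alternatives. Tbx3 passed with genes above the median level, trend and robust eBayes or array weights (adjusted p = 0.0499, 0.0124 and 0.00682), and Tbx2 with array weights (0.0232).

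With 1 array left out, list medians kept their sign except those of the other T-box, otic vesicle and pharyngeal endoderm lists. Directions turned in members near 0. Tbx6 was -0.042 to 0.084 with 1 array left out, -0.025 after quantile normalisation again and -0.026 after median centring. Tbx15 was -0.17 to 0.031 with 1 array left out and 0.070 with array weights, and Tbx18 was -0.018 to 0.083 with 1 array left out. The causes were not tested. The filter on the median level left no value for the 7 dimmest members. Signal over background could not be judged for dim probe sets.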
